A study of Mus musculus with 4 samples.

Results

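The 39 genes described here are genes known for their work in 4 tissues that lie beside or close to the pancreas: 11 of the liver, 14 of the intestine, 6 of the stomach and 8 of skeletal muscle. They were chosen by the organ they are known for, with the measured levels of these same libraries in view, and were taken by gene symbol from a count table of 24391 genes, with all 4 libraries of the study kept, and every symbol had a row. The libraries are RNA-seq of embryonic pancreas of mice at E18.5, shortly before birth, 2 of control embryos and 2 of *Rest* pKO embryos. *Rest* encodes a repressor of neuronal and endocrine genes, and the study asked which genes differ when it is lost from pancreatic progenitors. Both genotypes carried the Cre transgene *Pdx1-Cre*, which acts in the pancreatic epithelium and spares the mesenchyme, on a mixed background with C57BL/6. Controls had wild-type *Rest*, and *Rest* pKO embryos had 2 copies of a *Rest* allele whose exon 4 is removed by Cre. The labels number the libraries 1 and 2 within a genotype and name the tissue, but do not say how the organ was dissected.

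Hepatocytes, the main cells of the liver, make most proteins of the blood plasma, among them albumin, α-fetoprotein, fibrinogen and the apolipoproteins that carry lipids. Absorptive cells of the intestine take up and export fat and use several of the same apolipoproteins, while the intestinal identity of the epithelium is set by the factors *Cdx1* and *Cdx2*. The stomach lining is marked by gastrokines, trefoil peptides and pepsinogen, and skeletal muscle by the actins, myosins and troponins of the sarcomere. The fetal pancreas has its own use for some of these genes: villin is found on the apical side of duct and acinar cells, and desmin in smooth muscle and stellate cells.

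Counts summed to between 16936759 and 24134100 per library, and 17071 to 17306 genes had a count in each. Levels are given in CPM, counts per library total, with the total adjusted by TMM, a factor that corrects for differences in RNA composition. A floor of 3 counts corresponded to 0.137 to 0.179 CPM. In each genotype 1 library had high counts of *Xist*, the RNA of the inactive X chromosome, which stood at 1940 CPM in control 1, 0.454 in control 2, 0.788 in *Rest* pKO 1 and 566 in *Rest* pKO 2. Acinar enzyme genes, whose products define the exocrine organ, made up 27.6%, 26.5%, 27.0% and 33.0% of all counts in control 1, control 2, *Rest* pKO 1 and *Rest* pKO 2.

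Single libraries stood out in the levels of the liver and muscle genes. The genotypes overlapped in all 11 liver genes, as they did in 8333 of all 14550 genes tested. In 3 of the 8 muscle genes each *Rest* pKO library exceeded each control, which 21.5% of all genes tested did. The liver genes except *Trf* were high in control 1 and next highest in *Rest* pKO 1, and the muscle genes except *Des* were high in *Rest* pKO 2, as the plot of the member genes by library shows. The intestinal genes *Cdx1*, *Cdx2* and *Fabp2* and the stomach genes *Gkn1*, *Gkn2*, *Tff1* and *Pgc* were at or under the floor in all 4 libraries, while *Vil1* of the intestinal list and *Tff2* and *Cldn18* of the stomach list were counted well above it. Intestine and stomach are used here as names of lists and not of a tissue seen in the data. Of the 39 genes, 29 had enough counts to be tested for genotype. Of the 10 not tested, 8 were at or under the floor in every library (*Cdx1*, *Cdx2*, *Fabp2*, *Apoa4*, *Gkn1*, *Gkn2*, *Tff1* and *Pgc*), and *Apoc3* and *Muc13* reached 4 and 7 counts in 1 library.

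**Figure D1:**
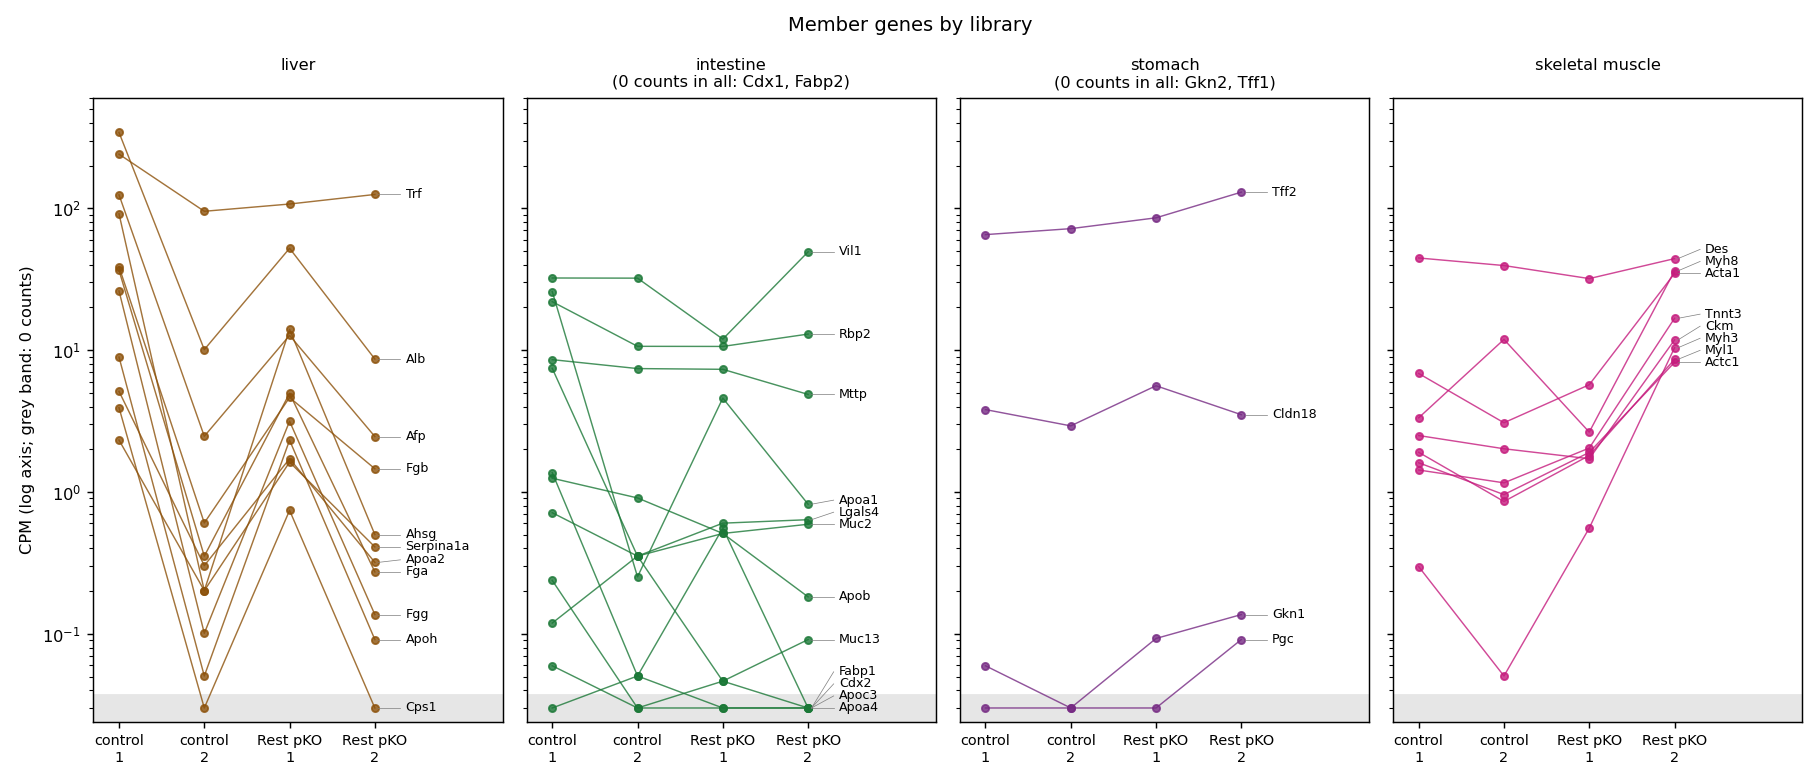
CPM (log axis) of each of the 39 genes in the 4 libraries, in 1 panel per tissue, with 1 line per gene and genes with 0 counts in a library drawn in the grey band. The liver lines peak in control 1 and, except for *Trf*, again in *Rest* pKO 1, and 7 of the 8 muscle lines end highest in *Rest* pKO 2.

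None of the 29 tested genes passed for genotype at an adjusted p under 0.05. The lowest adjusted p was 0.433 in edgeR's quasi-likelihood test, and 0.168 in DESeq2, which gave an adjusted p for 27 of them. Over all 14550 genes tested, edgeR called 0% higher and 0.0275% lower in *Rest* pKO, and DESeq2 called 0.182% higher and 0.533% lower. Of the 29 genes, 6 had a higher and 1 a lower level in *Rest* pKO with an unadjusted p under 0.05 in edgeR, where 3.26% and 5.61% of all genes were. For 4 of the 29 genes both *Rest* pKO libraries exceeded both controls, and for 2 both controls exceeded both *Rest* pKO libraries, which 21.5% and 21.2% of all genes tested did. The genes were chosen with results of these libraries known, so these counts are a description.

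Apart from *Trf*, the genes of albumin, α-fetoprotein and fetuin-A led the liver list. *Alb*, the main protein of plasma, stood at 343 CPM in control 1, 10.1 in control 2, 52.3 in *Rest* pKO 1 and 8.66 in *Rest* pKO 2. *Afp*, its fetal relative, stood at 124, 2.47, 12.7 and 2.46 CPM in the same order. *Ahsg*, which encodes fetuin-A, a plasma protein that holds calcium phosphate in solution, stood at 91.4, 0.202, 14 and 0.501 CPM. Each of them was highest in control 1 and second in *Rest* pKO 1. For *Alb* and *Ahsg* the libraries of either genotype differed by a larger ratio than the genotype means did, and for *Afp* this held for the controls but not for the *Rest* pKO libraries. *Alb* averaged 176 ± 235 CPM (SD, n = 2) over the controls and 30.5 ± 30.8 CPM (SD, n = 2) over the *Rest* pKO libraries. Its log2 fold change of *Rest* pKO over control was −2.53 ± 1.35 (SE, adjusted p = 0.634 by edgeR).

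The 3 chains of fibrinogen, the clot-forming protein, were likewise highest in control 1 and second in *Rest* pKO 1. *Fga* (α chain) stood at 36.5, 0.353, 4.96 and 0.273 CPM in control 1, control 2, *Rest* pKO 1 and *Rest* pKO 2. *Fgb* (β chain) stood at 38.7, 0.605, 4.64 and 1.46 CPM, and *Fgg* (γ chain) at 26.1, 0.101, 3.15 and 0.137 CPM. In control 2 the 3 genes had 7, 12 and 2 counts, near the floor, against 613, 650 and 439 counts in control 1. They sit side by side on chromosome 3 (mm9, NCBI build 37), *Fgg* from 82811781 to 82818975, *Fga* from 82830075 to 82838036 and *Fgb* from 82846169 to 82853725. *Alb* and *Afp* are also neighbours, on chromosome 5 from 90889915 to 90905629 and from 90919740 to 90937933.

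The proximal promoters of 4 of these genes are shown. They are 4 of the 5 liver promoters that hold the letters GTTAAT and do not stand for the liver genes as a whole. All 4 genes were highest in control 1 and second in *Rest* pKO 1, as were 10 of the 11 liver genes, and they lie on 2 chromosomes. Whether the motif has a part in these levels was not tested. Each line gives the 120 bases before the annotated RefSeq start, 5′ to 3′ on the strand of the gene. The build is GRCm38.p6, and the windows are chr5:90460750-90460869 for *Alb* and chr5:90490594-90490713 for *Afp* (plus strand), chr3:83026033-83026152 for *Fga* (plus strand) and chr3:83049864-83049983 for *Fgb* (minus strand). Capitals mark GTTAAT on either strand, the core of the half-site of HNF1, a factor of liver, pancreas, kidney and gut, and in *Afp* also TATAAA.
Alb: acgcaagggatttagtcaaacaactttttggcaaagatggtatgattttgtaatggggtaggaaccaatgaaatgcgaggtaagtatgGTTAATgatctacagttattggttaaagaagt
Afp: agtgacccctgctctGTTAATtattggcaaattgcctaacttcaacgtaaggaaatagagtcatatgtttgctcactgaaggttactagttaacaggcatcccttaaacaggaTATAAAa
Fga: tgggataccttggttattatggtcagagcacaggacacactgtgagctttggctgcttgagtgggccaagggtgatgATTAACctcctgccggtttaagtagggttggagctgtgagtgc
Fgb: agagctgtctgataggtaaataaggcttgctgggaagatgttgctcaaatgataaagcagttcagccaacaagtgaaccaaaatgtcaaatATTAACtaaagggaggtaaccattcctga
GTTAAT begins 32 bases before the annotated start in *Alb*, 105 in *Afp*, 43 in *Fga* and 29 in *Fgb*. RefSeq promoters were found for 32 of the 39 genes. GTTAAT was in the window of 5 of 9 liver genes (the 4 shown and *Serpina1a*), 3 of 12 intestine genes (*Cdx2*, *Fabp1* and *Muc13*), 0 of 4 stomach genes and 0 of 7 muscle genes. It was in 984 of all 32851 promoter windows, or 2.995%. *Serpina1a* held the letters as well, and *Cdx2* held them with 1 count in the 4 libraries together.

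The other liver genes, *Trf* apart, followed *Alb*. *Apoh*, a plasma glycoprotein that binds phospholipids, stood at 8.93, 0.0504, 2.32 and 0.0911 CPM in control 1, control 2, *Rest* pKO 1 and *Rest* pKO 2. *Cps1*, the first enzyme of the urea cycle, stood at 3.93, 0, 0.742 and 0 CPM. *Apoa2*, a protein of high-density lipoprotein, stood at 5.12, 0.303, 1.72 and 0.319 CPM. *Serpina1a*, which encodes α1-antitrypsin and has near-identical copies that can share its reads, stood at 2.32, 0.202, 1.62 and 0.410 CPM. The order of the libraries was again control 1, then *Rest* pKO 1, then the other 2. *Trf*, which encodes the iron carrier transferrin, was less uneven at 241, 95.3, 107 and 125 CPM, and control 1 was 2.53 times control 2.

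All 11 liver genes were highest in control 1, where 24.4% of the 14550 tested genes were highest. In 10 of the 11 *Rest* pKO 1 came second, the exception being *Trf*. Without *Trf* the liver genes summed to 680 CPM in control 1, 14.4 in control 2, 98.1 in *Rest* pKO 1 and 14.3 in *Rest* pKO 2. As a share of all counts these sums were 0.0674% (95% Wilson interval 0.0662% to 0.0687%) in control 1 and 0.00153% (0.00136% to 0.00172%) in control 2. In *Rest* pKO 1 and 2 they were 0.0102% (0.00978% to 0.0106%) and 0.00130% (0.00117% to 0.00145%). The intervals cover counting error only, and they do not overlap between the libraries of either genotype.

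Among the liver genes with an exon length, which leaves out *Trf*, *Alb*, *Ahsg* and *Afp* led per length in both control 1 and *Rest* pKO 1. Per kilobase of exon the level was 168 CPM for *Alb*, 62.0 for *Ahsg*, 59.6 for *Afp* and 23.5 for *Fgb* in control 1, and 25.6, 9.50, 6.09 and 2.82 CPM in *Rest* pKO 1. Below the first 3 the order differed: *Apoa2*, at 9.53 CPM per kilobase in control 1 and 3.20 in *Rest* pKO 1, stood under *Fgb* in control 1 and above it in *Rest* pKO 1. The ratio of control 1 to *Rest* pKO 1 ran from 3.85 (*Apoh*) to 9.79 (*Afp*), with a median of 6.96, over the 8 liver genes that stood at least 3 times above the next library.

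**Figure D2:**
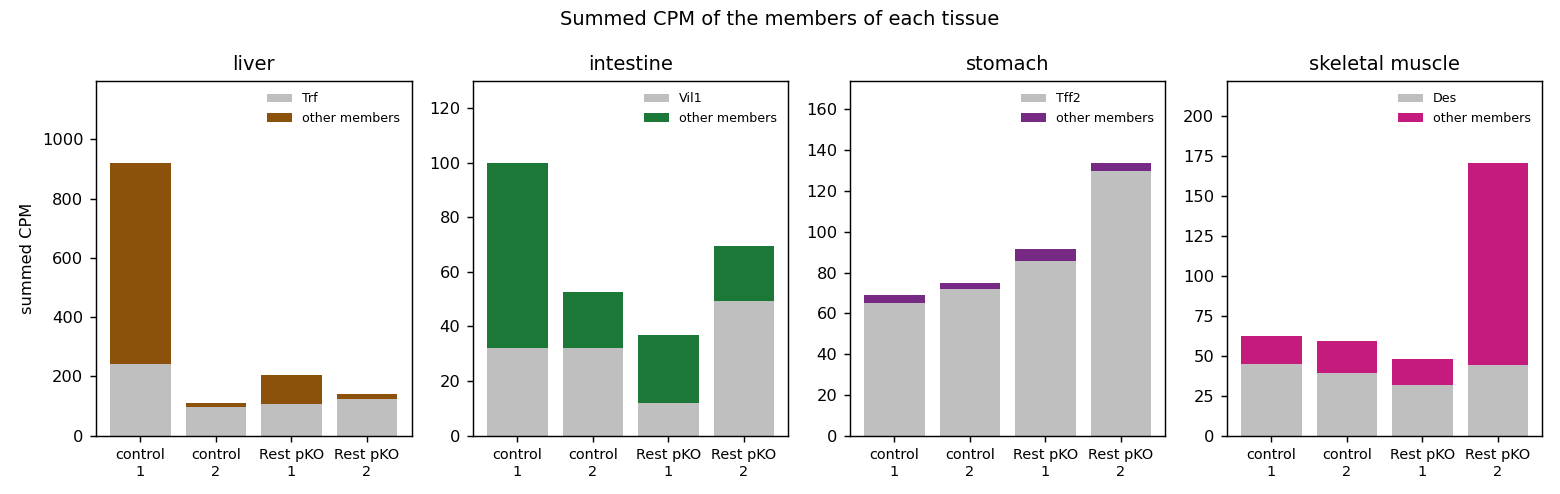
Summed CPM of the genes of each tissue in each library, as bars from 0 with a separate scale per panel and the gene with the highest mean CPM (*Trf*, *Vil1*, *Tff2*, *Des*) in grey. Apart from the grey gene, the liver sum is 680 CPM in control 1 and 98.1 CPM in *Rest* pKO 1 against 14.4 and 14.3 CPM in the other libraries, and the muscle sum is 127 CPM in *Rest* pKO 2 against 16.4 to 20.02 CPM.

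By genotype, all 11 liver genes had a lower mean in *Rest* pKO, with a median log2 fold change of −2.53 against −0.0048 over all genes tested. In all 11 the libraries of the 2 genotypes overlapped, as they did in 8333 of all 14550 genes tested. The liver median was −0.77 in limma-voom. The direction rests on control 1. Without control 1 all 11 log2 fold changes were above 0, with a median of 2.32, and without control 2 the median was −3.49. Without *Rest* pKO 1 it was −4.68, and without *Rest* pKO 2 −1.70. Called genes turned with the library too. With control 1 left out, edgeR called *Alb*, *Ahsg*, *Apoh*, *Fga* and *Fgg* higher in *Rest* pKO (0.332% of 15043 genes called higher), and with control 2 left out it called 9 of the 11 lower (0.490% of 14896 genes called lower). In these and all later fits that leave out a library, the lone library of a genotype was assumed to vary like the pair of the other genotype. DESeq2 called none of the 11 without control 1 (0.0725% of genes called higher) and only *Fgb* without control 2 (0.0385% called lower).

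**Figure D3:**
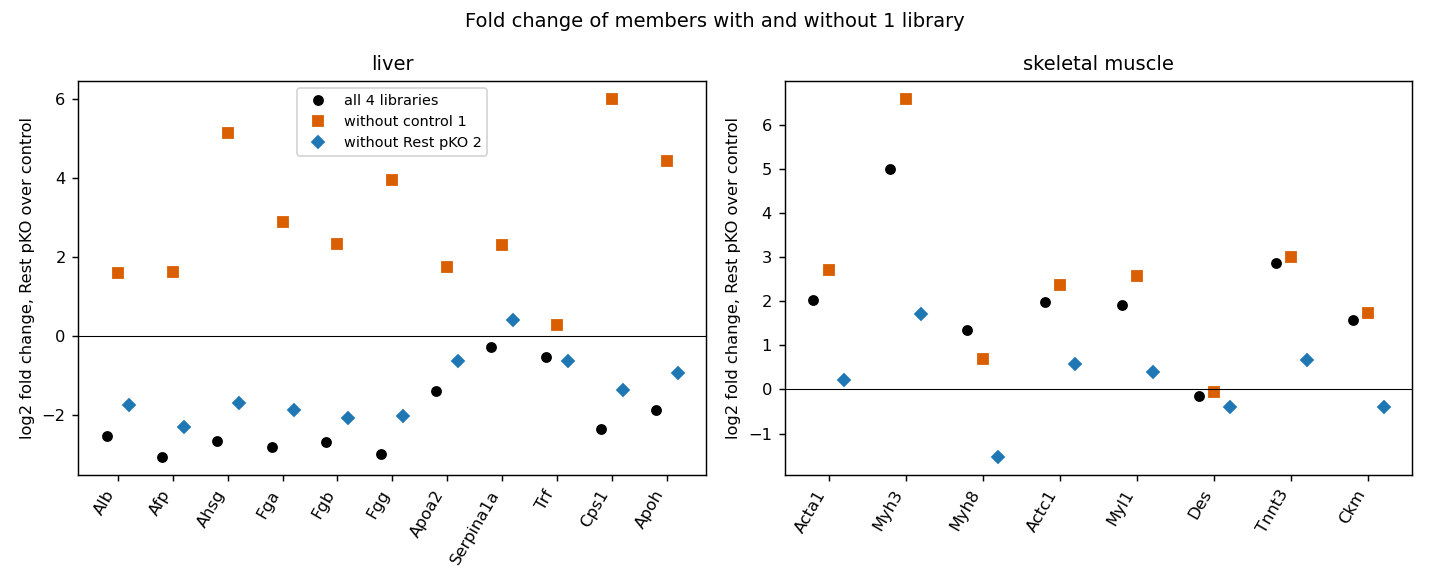
Log2 fold change of *Rest* pKO over control from edgeR for the 11 liver and 8 muscle genes, with all 4 libraries (black circles), without control 1 (orange squares) and without *Rest* pKO 2 (blue diamonds). All liver values lie above 0 without control 1, and the muscle median drops from 1.96 to 0.31 without *Rest* pKO 2.

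A wider panel of 34 liver genes, written from textbook knowledge with earlier results of these data known, held genes that followed *Alb* and genes that did not. Of the 23 tested, 16 were highest in control 1, and 15 had *Rest* pKO 1 in second place. The 8 that stood at least 3 times above the next library in control 1 were *Kng1*, *Itih3*, *Itih4*, *Plg*, *Serpinc1*, *Cpb2*, *Hpx* and *Apof*, all genes of secreted plasma proteins. Their ratio of control 1 to *Rest* pKO 1 ran from 3.18 (*Cpb2*) to 8.35 (*Apof*), with a median of 4.66. None of the 34 was called by edgeR or by DESeq2.

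The panel genes with the highest mean CPM were nearly even over the libraries. *Ambp*, which encodes α1-microglobulin and bikunin, stood at 126, 110.5, 126 and 161 CPM in control 1, control 2, *Rest* pKO 1 and *Rest* pKO 2. *Gc*, the vitamin D-binding protein, stood at 145, 85.6, 134 and 102 CPM, and *Vtn*, the adhesion protein vitronectin, at 117, 104, 126 and 130 CPM. *C3*, the central complement component, was the exception, at 248, 161, 51.9 and 126.5 CPM, with the controls above the *Rest* pKO libraries (log2 fold change −1.20, adjusted p = 0.494 by edgeR). DESeq2 called *C3* lower without *Rest* pKO 2, and edgeR called it lower without control 2. *Gc* was highest in control 1 and second in *Rest* pKO 1, as *Alb* was, but its highest library was 1.69 times its lowest, against 39.6 times for *Alb*, and *Ambp* and *Vtn* were highest in *Rest* pKO 2.

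Markers of blood cells, which fetal liver also makes, did not share the order of the liver genes. The summed level of 12 erythroid genes was 85.01 CPM in control 1, 229 in control 2, 82.0 in *Rest* pKO 1 and 58.1 in *Rest* pKO 2, highest in control 2. Of these sums, *Tfrc*, the transferrin receptor, made up 52.2, 90.0, 59.7 and 36.1 CPM in the same order. All 5 globin rows among them had 0 counts in every library. Globin genes outside the list had counts, such as *Hbb-y* at 3.23 CPM and *Hba-x* at 1.26 CPM in control 2. The 0 counts are therefore not read as an absence of globin RNA, and their reason was not tested. The panel gene *Hp* (haptoglobin, also made by neutrophils) was set apart with these, at 1.96, 14.02, 1.44 and 1.78 CPM. The part of these cells in the liver values was not tested.

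Intestinal genes differed in how uneven they were over the libraries. Of the 8 tested, 7 were highest in control 1, where 24.4% of all genes tested were highest. *Cdx1* and *Fabp2*, the intestinal fatty acid-binding protein, had 0 counts in all 4 libraries. *Cdx2* had 1 count, in control 2, and *Apoa4* had 1 count, in control 1, so that neither was detectable at this depth. *Vil1*, which encodes the microvillus protein villin and had the highest mean CPM of the list, stood at 32.3 CPM in control 1, 32.2 in control 2, 11.96 in *Rest* pKO 1 and 49.3 in *Rest* pKO 2. The controls were nearly equal, and the *Rest* pKO libraries lay on either side of them, 4.12 times apart (log2 fold change −0.07, adjusted p = 0.967 from edgeR). Without *Rest* pKO 2 DESeq2 called *Vil1* lower in *Rest* pKO (log2 fold change −1.43, adjusted p = 0.000363, where 0.859% of genes were called lower), and without *Rest* pKO 1 its log2 fold change was 0.62.

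The apolipoprotein genes of the intestinal list, which the liver also expresses, were, like *Alb*, highest in control 1. *Apoa1*, the main protein of high-density lipoprotein, stood at 25.9 CPM in control 1, 0.252 in control 2, 4.59 in *Rest* pKO 1 and 0.820 in *Rest* pKO 2. *Apob*, the scaffold of chylomicrons and low-density lipoprotein, stood at 7.44, 0.353, 0.510 and 0.182 CPM. *Fabp1*, the fatty acid-binding protein of liver and intestine, stood at 1.37, 0.0504, 0.556 and 0 CPM, and *Apoc3*, an inhibitor of lipoprotein lipase, had 4, 0, 1 and 0 counts. All 4 were highest in control 1 and second in *Rest* pKO 1. Control 1 exceeded *Rest* pKO 1 by 5.64 times for *Apoa1*, within the range of the liver genes, and by 14.6 times for *Apob*, above it. *Apob* was the 1 gene of the 39 that was lower at an unadjusted p under 0.05 (log2 fold change −3.46 ± 1.23, SE, with an adjusted p of 0.495 by edgeR). *Apoa1*, *Apoc3* and *Apoa4* lie in one cluster on chromosome 9 (mm9) between 46036663 and 46051542.

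Genes of fat export and mucus were low or even. *Mttp*, which loads lipid onto APOB, stood at 8.57 CPM in control 1, 7.41 in control 2, 7.33 in *Rest* pKO 1 and 4.87 in *Rest* pKO 2, without the excess in control 1 seen for *Apob*. *Muc2*, the gel-forming mucin of goblet cells, stood at 1.25, 0.908, 0.510 and 0.592 CPM, and *Muc13*, a membrane mucin, at 0.119, 0.353, 0.0464 and 0.0911 CPM. In *Mttp* and *Muc2* each control exceeded each *Rest* pKO library, which 21.2% of all genes tested did. Their log2 fold changes were −0.39 for *Mttp* (adjusted p = 0.690) and −0.95 for *Muc2* (adjusted p = 0.628, both from edgeR). *Muc13* was not tested. Its counts, in the same order, were 2, 7, 1 and 2, above the floor of 3 only in control 2. *Rbp2*, the cellular retinol-binding protein of absorptive cells, ran from 10.6 to 22.0 CPM, highest in control 1, and *Lgals4*, a galectin, from 0.353 to 0.714 CPM. The 8 tested intestinal genes had a median log2 fold change of −0.71, and −0.03 without control 1.

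A panel of 31 further intestinal genes was led by genes that the pancreas expresses. *Zg16*, a protein of zymogen granules, stood at 2591, 2285, 3011 and 3585 CPM in control 1, control 2, *Rest* pKO 1 and *Rest* pKO 2. *Anpep* and *Dpp4*, peptidases of the brush border, ran from 133 to 164 CPM and from 35.0 to 58.0 CPM. *Sis*, *Alpi* and *Mep1b*, digestive enzymes of the brush border, and *Atoh1*, the factor of secretory cells, had 0 counts in all libraries. *Krt20*, a keratin of differentiated intestinal epithelium, was at 11.5, 28.2, 62.0 and 51.1 CPM, higher in both *Rest* pKO libraries. DESeq2 called it (adjusted p = 0.00544) and edgeR did not (log2 fold change 1.51 ± 0.38, SE, with an adjusted p of 0.412), and it was the 1 gene of the 16 tested that either called. Both tools called it without control 2, and neither did when any of the other 3 libraries was left out.

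Of the stomach genes only the trefoil peptide *Tff2* and the claudin *Cldn18* were counted above the floor. *Gkn2* and *Tff1*, secreted products of the pit cells of the stomach, had 0 counts in all 4 libraries. *Gkn1* had 0, 0, 2 and 3 counts and *Pgc*, the pepsinogen of chief cells, 1, 0, 0 and 2. *Tff2*, made by mucous neck cells, stood at 65.2 CPM in control 1, 71.9 in control 2, 85.7 in *Rest* pKO 1 and 130 in *Rest* pKO 2. Each *Rest* pKO library exceeded each control, by a smaller step than the one between the *Rest* pKO libraries. *Tff2* averaged 68.6 ± 4.69 CPM over the controls and 108 ± 31.4 CPM over *Rest* pKO (SD, n = 2 per genotype), a log2 fold change of 0.65 ± 0.23 (SE, adjusted p = 0.494 by edgeR and 0.369 by DESeq2). Without *Rest* pKO 1, with a single *Rest* pKO library that borrows the spread of the controls, the log2 fold change was 0.93 and passed (adjusted p = 0.0386 from edgeR and 0.000794 from DESeq2, where 0.395% and 0.860% of genes were called higher), and without *Rest* pKO 2 it was 0.33 (adjusted p = 0.540 from edgeR). *Cldn18*, a tight-junction protein of stomach and lung, ran from 2.93 to 5.61 CPM. *Tff1* and *Tff2* are neighbours on chromosome 17 (mm9), from 31298341 to 31301998 and from 31277994 to 31281227, and differed from 0 to 130 CPM in *Rest* pKO 2.

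Among 18 further stomach genes *Atp4b*, a subunit of the acid pump, *Muc5ac*, the mucin of the surface, and *Lipf*, gastric lipase, had 0 counts in all libraries. The panel was led by *Muc1*, a membrane mucin of many epithelia, at 275, 203, 285 and 276.5 CPM in control 1, control 2, *Rest* pKO 1 and *Rest* pKO 2. *Barx1*, a homeobox gene of the stomach mesenchyme, stood at 10, 9.58, 4.96 and 6.83 CPM, *Atp4a*, the catalytic subunit of the acid pump, at 5.24, 4.84, 5.84 and 9.88 CPM, and *Ctse*, an aspartic protease, at 0.774, 1.97, 0.927 and 0.866 CPM. None of the 6 tested was called by edgeR or DESeq2.

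Skeletal muscle genes were high in *Rest* pKO 2. *Acta1*, skeletal α-actin, stood at 6.85 CPM in control 1, 3.08 in control 2, 5.70 in *Rest* pKO 1 and 34.7 in *Rest* pKO 2. *Tnnt3*, fast troponin T, stood at 1.43, 1.16, 2.04 and 16.8 CPM, and *Ckm*, muscle creatine kinase, at 2.50, 2.02, 1.72 and 11.8 CPM. In each the first 3 libraries lay close together and *Rest* pKO 2 stood apart. *Actc1*, cardiac α-actin, which fetal skeletal muscle also uses, stood at 1.61, 0.958, 1.90 and 8.20 CPM, and *Myl1*, a fast myosin light chain, at 1.90, 0.857, 1.81 and 8.61 CPM. *Acta1* and *Actc1* have very similar coding sequences, and only uniquely mapped reads were counted, so the split of reads between them is uncertain.

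*Myh3*, the embryonic myosin heavy chain, was the most uneven of the 8 muscle genes by the ratio of its highest to its lowest library. It stood at 0.298 CPM in control 1, 0.0504 in control 2, 0.556 in *Rest* pKO 1 and 10.4 in *Rest* pKO 2, from 5, 1, 12 and 228 counts. *Myh8*, the perinatal myosin heavy chain, stood at 3.33, 11.9, 2.64 and 36.2 CPM. *Rest* pKO 2 was 18.7 times *Rest* pKO 1 for *Myh3* and 13.7 times for *Myh8*. *Myh8* was also higher in control 2 than in control 1 (control 1 at 0.280 of control 2), which no other muscle gene of the 8 was. Both lie on chromosome 11 (mm9), *Myh3* from 66891802 to 66915793 and *Myh8* from 67090626 to 67122136.

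Promoters of *Acta1* and *Myh3* are shown because both genes were set apart in *Rest* pKO 2 and both promoters hold the letters TATAAA. The windows are the 120 bases before the annotated RefSeq start (GRCm38.p6, chr8:123894776-123894895, minus strand, for *Acta1* and chr11:67078180-67078299, plus strand, for *Myh3*). Capitals mark TATAAA, the letters of the TATA box, searched on the strand of the gene only. Whether they act as a TATA box was not tested.
Acta1: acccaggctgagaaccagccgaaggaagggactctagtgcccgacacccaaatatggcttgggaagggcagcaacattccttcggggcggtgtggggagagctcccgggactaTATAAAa
Myh3: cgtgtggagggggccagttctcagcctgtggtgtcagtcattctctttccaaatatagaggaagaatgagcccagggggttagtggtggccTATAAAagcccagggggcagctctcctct
TATAAA begins 7 bases before the annotated start of *Acta1* and 29 before that of *Myh3*, which were the 2 of 7 muscle promoters that held it, against 1 of 9 for liver, 3 of 12 for intestine, 2 of 4 for stomach and 4.19% of all windows. CAGCTG, an E-box that reads alike on both strands and overlaps neither other motif in its letters, was in 1 of 7 muscle promoters (*Des*), 0 of 9 liver, 2 of 12 intestine and 0 of 4 stomach promoters, and in 6.76% of all windows.

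*Des*, which encodes the intermediate filament desmin and is shared with smooth muscle, was even, at 44.7 CPM in control 1, 39.5 in control 2, 31.95 in *Rest* pKO 1 and 44.2 in *Rest* pKO 2. Without *Des* the muscle genes summed to 17.9, 20.02, 16.4 and 127 CPM in the same order. The other 7 genes were highest in *Rest* pKO 2, where 33.8% of all tested genes were highest, and stood there at least 3 times above the next library. The ratio of *Rest* pKO 2 to *Rest* pKO 1 ran from 4.31 (*Actc1*) to 18.7 (*Myh3*), with a median of 6.88. Per kilobase of exon, *Acta1* led at 24 CPM in *Rest* pKO 2, followed by *Tnnt3* at 12.5 and *Des* at 11.8 CPM.

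Other muscle types did not share this pattern. The 10 smooth muscle genes, led by *Acta2* and *Mylk*, summed to 138, 208, 161 and 211 CPM in control 1, control 2, *Rest* pKO 1 and *Rest* pKO 2. The 8 cardiac genes summed to 3.33 to 4.46 CPM, with *Nppa*, the atrial hormone, at 0 counts and *Myh6*, the atrial myosin, at 0 or 1 count. *Rest* pKO 2 was also the library with the highest acinar share, and whether that has a part in the muscle values was not tested.

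By genotype, 7 of the 8 muscle genes had a higher mean in *Rest* pKO, with a median log2 fold change of 1.96. The log2 fold change of *Myh3* was 4.99 ± 1.42 (SE, adjusted p = 0.433 by edgeR and 0.360 by DESeq2). That of *Tnnt3* was 2.86 ± 0.87 (SE, adjusted p = 0.457 by edgeR and 0.575 by DESeq2), and that of *Actc1* was 1.98 ± 0.68 (SE, adjusted p = 0.494 by edgeR and 0.168 by DESeq2). In these 3 each *Rest* pKO library exceeded each control, which 21.5% of all genes tested did. Without *Rest* pKO 2 the median was 0.31, none of the 8 was called (0.00670% of 14918 genes called higher by edgeR, 0.135% by DESeq2), and *Myh8* and *Ckm* were lower in *Rest* pKO, with log2 fold changes of −1.53 and −0.39. Without *Rest* pKO 1, edgeR and DESeq2 both called *Acta1*, *Actc1*, *Ckm*, *Myh3*, *Myl1* and *Tnnt3* higher (0.395% and 0.860% of genes called higher). Without control 1 edgeR called 5 of the 8 higher and without control 2 it called 4 (0.332% and 0.181% of genes called higher), and DESeq2 called none in either (0.0725% and 0.0220% of genes called higher).

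A panel of 32 further muscle genes followed the same library. Of the 15 tested, 14 were highest in *Rest* pKO 2, and 10 of the 32 stood there at least 3 times above the next library. In 10 of the 15 tested, each *Rest* pKO library exceeded each control, which 21.5% of all genes tested did. *Mylpf*, a fast myosin light chain, stood at 3.16 CPM in control 1, 3.23 in control 2, 4.45 in *Rest* pKO 1 and 25.8 in *Rest* pKO 2, and *Tnni2*, fast troponin I, at 1.67, 1.16, 1.90 and 9.52 CPM. DESeq2 called 3 of them higher and edgeR none: *Tnnc2*, fast troponin C, at 1.37, 0.706, 2.27 and 13.4 CPM (adjusted p = 0.00544 from DESeq2 and 0.424 from edgeR). The second was *Ttn*, the giant spring protein titin, at 0.357, 0.353, 0.927 and 9.02 CPM (adjusted p = 0.00477 and 0.424). The third was *Atp2a1*, the calcium pump of fast fibres, at 0.238, 0.303, 0.556 and 6.47 CPM (adjusted p = 0.0223 and 0.454). Each of the 3 stood in *Rest* pKO 2 at 5.91 times or more the level of *Rest* pKO 1, and none was called by either tool without *Rest* pKO 2. *Myom1*, a protein of the M band, was even at 6.55, 8.47, 7.05 and 6.42 CPM. *Myod1*, *Myf5* and *Myf6*, the factors that set muscle fate, had 0.182 CPM or less in every library. *Myog*, the factor of muscle differentiation, stood at 0.179, 0.353, 0.603 and 1.32 CPM, with each *Rest* pKO library above each control (log2 fold change 1.81, adjusted p = 0.504 by edgeR).

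**Figure D4:**
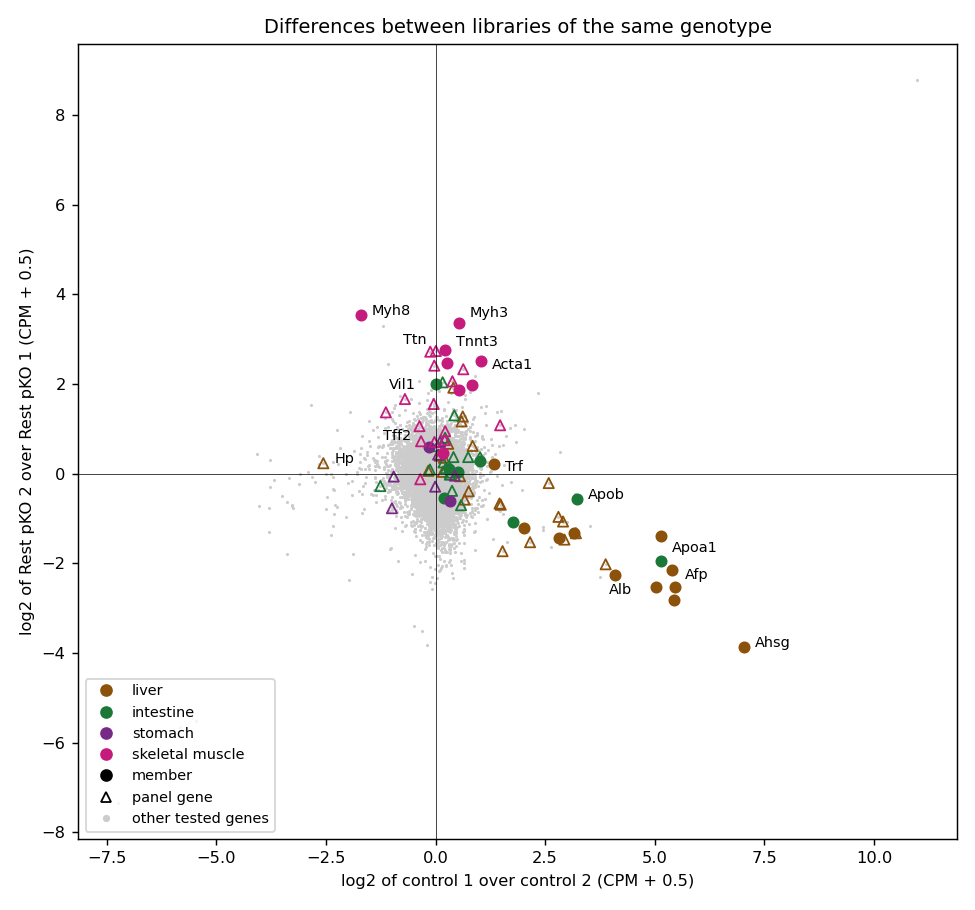
Log2 ratio of control 1 over control 2 (x axis) against that of *Rest* pKO 2 over *Rest* pKO 1 (y axis), both on CPM + 0.5, for all 14550 tested genes (grey points), the genes described here (filled circles) and the further panel genes (open triangles), coloured by tissue. Liver genes with *Apoa1* and *Apob* spread to the lower right, muscle genes lie at the top, and most other genes are near the centre.

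The whole table was also searched for genes set apart in 1 library. These stood at least 3 times above the next library (or its floor of 3 counts) and at 1 CPM or more. The 39 genes and the panels were chosen with results of these libraries known, so their place in this search is a description. Of 14196 genes that reached 1 CPM in a library, 33 (0.232%) were set apart in control 1, 111 (0.782%) in control 2, 9 (0.0634%) in *Rest* pKO 1 and 33 (0.232%) in *Rest* pKO 2. In control 1 the 33 held 10 of the 39 genes, 8 from the liver list with *Apoa1* and *Apob*, and 8 of the liver panel. In *Rest* pKO 2 they held 7 of the 39, all muscle genes, and 10 of the muscle panel. The 111 genes of control 2 and the 9 of *Rest* pKO 1 held none of the 39. Ranked by CPM, the first 20 genes set apart in control 1 held 14 of the liver lists, and the first 20 of *Rest* pKO 2 held 15 of the muscle lists. In bulk tissue, fewer cells of a type and less RNA per cell cannot be told apart.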

How the data were processed

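RNA was measured in 4 libraries of E18.5 mouse pancreas, 2 per genotype, grouped by the genotype and sample number in the labels. The deposited table holds unnormalized read counts by gene symbol. To make these counts the authors sequenced paired 100-bp reads, aligned them to mm9 with STAR, kept those that mapped uniquely and assigned them to UCSC genes with featureCounts, version 1.5 per the submitters' processing notes. The authors then used DESeq2. Strand setting and pair counting are not given in the sources used here, so overlapping and antisense genes cannot be told apart. The study's methods speak of 3 pancreas for each genotype, and which of them these libraries are is not said, so p-values measure only the spread between these samples. No per-sample column was left out (0 columns).

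Genotype was tested in R 4.3.3 with edgeR 4.0.16 (filterByExpr, TMM, glmQLFit, glmQLFTest) on all 14550 genes that passed the filter, with Benjamini-Hochberg adjustment over all of them. The SE of a log2 fold change is its size over the root of the F statistic. The biological coefficient of variation was 0.211. Replicates differed beyond sampling noise (chi-square per degree of freedom 23.2 for controls and 64.9 for *Rest* pKO, over genes with 20 or more counts in the pair). Same-numbered libraries of the 2 genotypes were not treated as paired, since the labels do not say that they are (correlation of their deviations 0.0478). Log ratios within a genotype used an offset of 0.5 CPM. The procedure was tested on simulated counts. Promoters are RefSeq's for GRCm38.p6, gene positions and exon lengths are from an mm9 annotation, and no coordinate was converted. *Trf* has no single position there.

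The 39 genes, the panels and the context lists were chosen with earlier results of these data known, and *F2*, *F10* and *Krt20* had been seen near the top of the study's own list of changed genes. The panels hold 115 genes. By the naming rule, all 39 genes are accounted for, with values in every library for those whose genotypes do not overlap or whose highest library is at least 3 times the lowest, and for the highest of each tissue. Panel genes named with values are the 4 most abundant tested of each tissue and those that edgeR or DESeq2 called, and context lists are given by sums with up to 2 genes. Further genes were named after their values were seen: those set apart in 1 library, those at 0 counts, *Xist*, *Hp*, *Nppa*, *Myh6* and the muscle-fate factors. Alternatives were DESeq2's size factors, TMM without acinar, erythroid and the 39 genes, no filter, at least 1 CPM in 2 libraries, DESeq2 1.42.0, limma-voom (limma 3.58.1), a block for the replicate number, each library left out, and, added after seeing the data, DESeq2 with each library left out.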

Additional observations from a re-analysis of the deposited data

How the results depend on the processing

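With 2 libraries per genotype, the liver and the muscle medians depended strongly on 1 library. Leaving out each library in turn, in edgeR and DESeq2, gave medians of −4.68 to 2.35 for liver genes, above 0 only without control 1. The medians were 0.30 to 2.68 for muscle, lowest without *Rest* pKO 2, −1.51 to −0.013 for intestine and 0.49 to 1.48 for stomach. Over all genes, these fits called 1 to 106 genes higher and 0 to 667 lower.

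Over the same fits, log2 fold changes of liver genes ran from −4.35 to 1.61 for *Alb*, −4.68 to 1.64 for *Afp*, −6.51 to 5.19 for *Ahsg*, −6.07 to 2.91 for *Fga*, −3.75 to 2.35 for *Fgb* and −6.58 to 4.05 for *Fgg*. They ran from −3.08 to 1.77 for *Apoa2*, −5.62 to 4.60 for *Apoh*, −8.24 to 5.99 for *Cps1*, −1.61 to 2.35 for *Serpina1a* and −1.06 to 0.30 for *Trf*. The ranges were −3.99 to 3.44 for *Apoa1*, −6.77 to 2.48 for *Fabp1*, −0.90 to 0.16 for *Rbp2*, −0.21 to 0.83 for *Lgals4* and −1.43 to 0.63 for *Vil1*. Among muscle genes *Myh8* ran from −1.53 to 2.54, *Ckm* from −0.40 to 2.40 and *Des* from −0.40 to 0.081. In the panels *Gc* ran from −0.30 to 0.47, *Anpep* from −0.0013 to 0.25, *Ctse* from −1.13 to 0.21 and *Myom1* from −0.34 to 0.039. Where the remaining libraries of a genotype are at 0 counts (*Cps1*, *Fabp1*), the fitted value depends on the prior count.

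DESeq2 called 26 genes higher and 76 lower, where edgeR called 0 and 4. Without a filter and in DESeq2, which take in genes near 0 counts, the medians were −1.50 and −1.50 for intestine and 0.65 and 0.65 for stomach. In limma-voom *Serpina1a* was at 0.29, and the medians were −0.77 for liver and 1.64 for muscle. A replicate block, pairing the libraries by number, left 0 genes higher and 4 lower, called none of the 39 and gave medians of −1.66 for liver and 1.63 for muscle. The labels do not say whether the numbers pair the libraries. DESeq2's size factors, TMM without acinar, erythroid and the 39 genes and a 1 CPM filter kept the direction of all 4 medians. Below about 0.14 to 0.18 CPM, depth does not allow a level to be read.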

Other observations

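Control 2 had its own set of 111 genes set apart from the other libraries, none of them among the 39. The highest were *S100a9* and *S100a8*, calcium-binding proteins of neutrophils, at 110 and 76.1 CPM against 8.16 and 5.66 CPM or less elsewhere. Granule and enzyme genes of the same cells were among them, such as *Mmp8* at 30.8 CPM, *Ltf* at 26.7 CPM and *Mpo* at 19.0 CPM. Erythroid genes stood beside them, with *Alas2*, the first enzyme of haem synthesis in red cells, at 58.5 CPM against 15.5 to 18.8 CPM and *Slc4a1*, the band 3 anion exchanger, at 52.4 CPM against 1.41 to 10.2 CPM. Of a list of 7 spleen genes, 3 were set apart there, and *Tlx1*, a homeobox gene of the developing spleen, stood at 6.81 CPM against 1.07 to 2.00 CPM. The list as a whole summed to 17.3 CPM in control 1, 25.2 in control 2, 19.9 in *Rest* pKO 1 and 25.1 in *Rest* pKO 2. Its most abundant gene, *Madcam1*, was lowest in control 2, at 14.7, 11.25, 16.1 and 21.2 CPM in the same order. These genes were picked after their values were seen.

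In *Rest* pKO 1 the 9 genes set apart included *Krt13* and *Krt4*, keratins of stratified epithelium, at 1.72 and 2.04 CPM, and *Sftpd*, a surfactant protein, at 3.01 CPM. In *Rest* pKO 2 *Gast* and *Gip*, hormones of the stomach and the duodenum, were set apart at 1.37 and 1.05 CPM beside the muscle genes. Of control 1, genes outside the lists included *Pzp*, a protease inhibitor of plasma, at 12.3 CPM and *Igfbp1*, an insulin-like growth factor-binding protein that liver secretes, at 7.56 CPM, both with *Rest* pKO 1 second at 2.27 and 1.44 CPM. Mesothelial genes, which line the organs of the abdomen, summed to 674, 603, 497 and 666 CPM in control 1, control 2, *Rest* pKO 1 and *Rest* pKO 2. Of these sums the keratin *Krt18* made up 344, 328.5, 360 and 452 CPM. In 4 of the 6 genes both controls exceeded both *Rest* pKO libraries, and in *Krt18* the reverse held, where 21.2% and 21.5% of all genes tested did so. DESeq2 called 2 of the 6 lower (0.533% of all genes) and edgeR none. Adrenal and kidney genes summed to 89.5, 79.3, 104 and 67.2 CPM. Both sums were without the excess of liver genes in control 1 or of muscle genes in *Rest* pKO 2. The latter sum was mostly *Nphs1*, the slit-diaphragm protein nephrin, at 60.6 to 99.9 CPM. *Hsd3b1*, a steroid-making enzyme of the same list, was set apart in control 1, at 1.73, 0, 0.325 and 0 CPM.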
